A study of Arabidopsis thaliana with 12 samples.

Results

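The 10 genes described here encode the enzymes that turn a lipoxygenase product into the active jasmonate hormone. They are AOS, AOC1, AOC2, AOC3, AOC4, OPR3, OPCL1, ACX1, KAT2 and JAR1, found by their locus identifiers. The rule uses no measured value, but the list was drawn up with earlier results of these data known. All 10 were found among the 34262 genes listed in the count tables, and all 10 were among the 18698 genes that passed the filter on low counts. RNA was sequenced from leaf 13 of Arabidopsis thaliana rosettes grown under 10 h of light per day and 5 weeks old. There were 4 groups of 3 replicates each, and every replicate was a pool of 2 plants: unwounded Col-0 wild type (WT), wounded WT, unwounded isi1-2 and wounded isi1-2. In wounded plants 50 to 60% of the blade of leaf 8 was crushed with forceps, and the undamaged leaf 13 was taken 1 h later. The isi1-2 line is 1 insertion line (SALK_014032) of the gene ISI1 in the Col-0 background, so the line and the gene cannot be told apart. The comparisons ask how the transcripts respond in a leaf at a distance from the wound, and how isi1-2 differs from WT before and after wounding.

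Jasmonates are lipid hormones that plants make within minutes of wounding, both in the damaged leaf and in leaves connected to it. In the chloroplast, allene oxide synthase (AOS) acts on the hydroperoxide made by 13-lipoxygenases, and allene oxide cyclase (AOC) closes the ring to give 12-oxo-phytodienoic acid (OPDA). In the peroxisome, OPDA reductase 3 (OPR3) reduces the ring, the CoA ligase OPCL1 activates the acid, and beta-oxidation by acyl-CoA oxidases (ACX1), multifunctional proteins and thiolases (KAT2) shortens the side chain to jasmonic acid. JAR1 joins jasmonic acid to isoleucine, which gives the form that the hormone's receptor binds, and many genes of the pathway are themselves known to be induced by the hormone.

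The libraries held 23307790 to 30747778 counts over genes, so that 3 counts, the lowest level taken as detected, stood for 0.0995 to 0.126 counts-per-million (CPM). ISI1 had 254 to 337 counts in each WT library and 1 to 4 in each isi1-2 library. JAZ10, a jasmonate-responsive repressor gene, averaged 1.18 CPM in unwounded and 290.4 CPM in wounded WT. Replicate 1 of wounded WT stood apart from replicates 2 and 3 of its group: its counts differed from theirs by a chi-square per degree of freedom of 25.2 and 15.9, against 4.42 to 11.6 for the other replicate pairs. Among leaf markers, the summed level of 3 epidermal genes was 322 to 368 CPM in unwounded and 184 to 208 CPM in wounded WT, and 330.1 to 392 and 171 to 205 CPM in isi1-2; 3 of 3 were called lower in WT and 2 of 3 in isi1-2. The 4 mesophyll genes summed to 50899 to 54677 CPM in unwounded and 45736 to 47049.5 CPM in wounded WT, and to 50754 to 54701 and 44496 to 49967 CPM in isi1-2, with 3 and 2 of the 4 called lower. The 3 guard cell markers summed to 47.2 to 51.9 CPM in unwounded and 39.2 to 42.8 CPM in wounded WT, and to 40.1 to 49.4 and 39.1 to 44.6 CPM in isi1-2, with 2 and 1 of them called lower. Root markers summed to 7.41 to 8.34 and 1.82 to 3.60 CPM in WT, and to 12.3 to 15.2 and 3.68 to 6.15 CPM in isi1-2, where the 1 tested gene of the 3, NPF7.3, was called lower in both lines. Flower markers summed to at most 1.97 CPM, and the 1 tested gene of the 3, AG, was called lower in both lines. The 3 phloem markers lay at 304 to 341 CPM across the 12 libraries, with APL called lower in WT, and the 3 xylem markers at 45.7 to 60.2 CPM, with none called by edgeR. The flower genes AP3 and PI and the root gene IRT1 never exceeded 3 counts. The part of these markers in the results was not tested. In whole leaves, fewer cells of a type and less RNA per cell cannot be told apart.

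In the TAIR10.1 annotation, AOC1 (AT3G25760, chr3:9403779-9405338), AOC2 (AT3G25770, chr3:9406669-9408071) and AOC3 (AT3G25780, chr3:9409160-9411090) stand in a row on the forward strand. AOC4 (AT1G13280) lies on another chromosome, at chr1:4547388-4548894. The other 6 genes are AOS (AT5G42650, chr5:17097564-17099595, reverse strand), OPR3 (AT2G06050, chr2:2359114-2362375, reverse), OPCL1 (AT1G20510, chr1:7103362-7106121, reverse), ACX1 (AT4G16760, chr4:9424534-9428895, reverse), KAT2 (AT2G33150, chr2:14047478-14051400, reverse) and JAR1 (AT2G46370, chr2:19033586-19036683, forward). The 4 cyclase genes were counted separately, so their likeness bears on their values. Their coding sequences were 73 to 90.3% identical, with AOC1 and AOC2 the most alike. The most similar stretch of 150 bases, the length of 1 read, still differed at 4 bases between AOC1 (coding bases 466 to 615) and AOC2 (coding bases 463 to 612). It is shown 5′ to 3′ with those bases in capitals, because it is where a read is hardest to place:
AOC1: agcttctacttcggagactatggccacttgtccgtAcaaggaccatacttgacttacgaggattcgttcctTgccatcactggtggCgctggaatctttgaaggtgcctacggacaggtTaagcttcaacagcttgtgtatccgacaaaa
AOC2: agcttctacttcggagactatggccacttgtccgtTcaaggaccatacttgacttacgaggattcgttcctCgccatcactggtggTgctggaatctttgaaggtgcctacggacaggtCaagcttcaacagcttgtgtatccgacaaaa
For the other 5 pairs of cyclase genes the closest stretches differed at 10 to 23 bases. Stretches of 150 bases, here and below, were taken from the longest annotated transcript of each gene. None from the 10 genes occurred in another gene, and none of the 10 overlapped another annotated gene.

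Upstream sequence is given for the genes whose 250 bases before the annotated start held a letter motif, and for the neighbours AOC1 and AOC2. The motif CACGTG, which reads the same on both strands and is known as the G-box, was found before AOS and ACX1. The motif AACGTG, searched on both strands and found as CACGTT, a G-box-like element known from jasmonate-responsive promoters, was found before AOC1. The sequences are from RefSeq TAIR10.1, each written 5′ to 3′ on the gene's own strand and ending at the base before the annotated start, with the motif in capitals:
AOS (chr5:17099596-17099845, reverse strand): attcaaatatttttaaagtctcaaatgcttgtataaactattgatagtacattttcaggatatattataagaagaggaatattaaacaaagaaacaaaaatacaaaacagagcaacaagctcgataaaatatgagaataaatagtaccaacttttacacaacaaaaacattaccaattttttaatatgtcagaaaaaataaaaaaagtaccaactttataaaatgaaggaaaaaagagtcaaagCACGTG
AOC1 (chr3:9403529-9403778, forward strand): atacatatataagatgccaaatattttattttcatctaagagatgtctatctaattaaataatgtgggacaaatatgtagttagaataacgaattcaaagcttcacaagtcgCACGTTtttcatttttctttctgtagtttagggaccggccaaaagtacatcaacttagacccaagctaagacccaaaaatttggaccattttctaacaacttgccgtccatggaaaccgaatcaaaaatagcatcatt
AOC2 (chr3:9406419-9406668, forward strand): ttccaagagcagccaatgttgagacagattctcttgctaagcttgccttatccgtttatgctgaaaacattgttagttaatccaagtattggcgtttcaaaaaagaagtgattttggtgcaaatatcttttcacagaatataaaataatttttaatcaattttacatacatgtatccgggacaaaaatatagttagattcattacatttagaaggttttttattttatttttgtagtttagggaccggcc
ACX1 (chr4:9428896-9429145, reverse strand): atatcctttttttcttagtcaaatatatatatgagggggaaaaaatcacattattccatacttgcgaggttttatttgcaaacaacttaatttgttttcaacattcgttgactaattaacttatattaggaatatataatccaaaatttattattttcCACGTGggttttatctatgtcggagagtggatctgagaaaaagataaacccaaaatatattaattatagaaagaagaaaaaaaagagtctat
CACGTG was also present in 6.49% and AACGTG in 7.54% of 27443 promoter windows of the same length. The motif ended 1 base before the annotated start of AOS, 87 bases before that of ACX1 and 133 bases before that of AOC1. In the windows of the other 7 genes neither motif was found, which says only that these letters are not in these 250 bases. The AOC1 and AOC2 windows shared a run of 19 bases, TGTAGTTTAGGGACCGGCC, at 117 to 99 bases before the start of AOC1 and directly before that of AOC2. That run reached the edge of the AOC2 window and was not followed past it. Other pairs of cyclase windows shared at most 9 bases in a row.

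One hour after wounding, transcripts of all 10 genes were higher in leaf 13 of WT. The rise ran from 1.18-fold for KAT2 to 307-fold for AOC1, with a median log2 fold change of 3.65. Among all genes tested, 23.9% were called higher and the median log2 fold change was 0.00. Calls are from edgeR's quasi-likelihood test across all genes, at a Benjamini-Hochberg adjusted p under 0.05. In isi1-2 all 10 genes were again called higher, where 25.1% of all genes were, with a median of 3.98. Without the WT library that stood apart all 10 were still called in WT, KAT2 with the smallest log2 fold change (0.27) and AOC1 with the largest (8.38). The 10 genes together took up 0.0730 to 0.0970% of all gene counts in unwounded WT and 0.858 to 1.08% in wounded WT. In isi1-2 the corresponding shares were 0.0838 to 0.0921% and 1.17 to 1.28%.

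**Figure D1:**
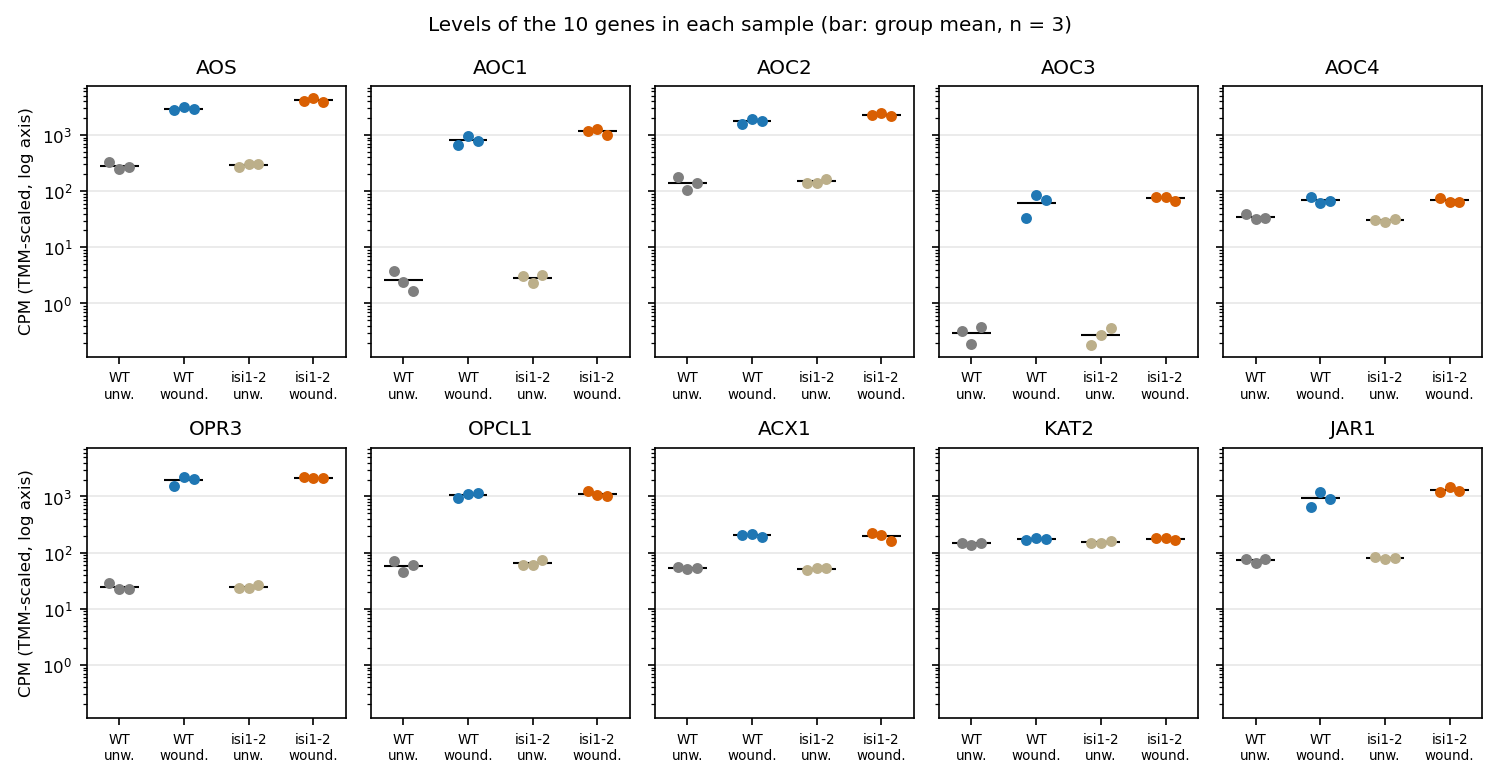
Level of each of the 10 genes in every sample, in CPM scaled by the trimmed mean of M values (TMM) on a log axis, with 3 samples per group and bars at group means. The wounded groups lie above the unwounded groups in every panel, by the widest margins for AOC1, AOC3 and OPR3 and the narrowest for KAT2.

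AOS, the first enzyme committed to jasmonates, was already among the more abundant transcripts in unwounded leaves. Its levels were 325, 245 and 271 CPM in unwounded WT and 2832, 3154 and 2893 CPM in wounded WT. In isi1-2 they were 270.5, 299.7 and 306 CPM without a wound and 4108, 4500.5 and 3823 CPM after it. The wounded samples lay above all unwounded ones in both lines, and the wounded isi1-2 samples lay above all wounded WT samples. The log2 fold change on wounding was 3.40 (SE 0.0924, adjusted p = 6.91e-13) in WT and 3.83 (SE 0.0923, adjusted p = 1.62e-13) in isi1-2. Per exon length, AOS moved from place 530 to place 45 among 32548 genes in WT, and from 519 to 34 in isi1-2.

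The 4 allene oxide cyclase genes differed in both level and response. AOC2 was the main cyclase transcript before wounding, with 179, 106 and 137 CPM in unwounded WT, and reached 1602, 1903 and 1768 CPM after wounding. In isi1-2 it rose from 140.2, 141 and 166 CPM to 2231, 2492 and 2188 CPM. These are log2 fold changes of 3.65 (SE 0.158, adjusted p = 2.66e-08) in WT and 3.95 (SE 0.157, adjusted p = 1.14e-08) in isi1-2, with no overlap between unwounded and wounded samples.

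AOC1, its upstream neighbour, was scarce without a wound, at 3.79, 2.37 and 1.67 CPM in WT (93, 63 and 40 counts). It reached 665, 949 and 795 CPM in wounded WT. The isi1-2 levels were 3.12, 2.32 and 3.21 CPM before and 1179, 1296 and 999 CPM after wounding. AOC1 thus had the largest fitted rise of the 10 genes in both lines. Its log2 fold changes were 8.26 (SE 0.259, adjusted p = 2.01e-09) in WT and 8.66 (SE 0.249, adjusted p = 1.05e-09) in isi1-2. It stood at place 42 of the 18698 genes tested when these were ordered by their fold change in WT. Its order against AOC3, whose values of 7.71 and 8.08 each had an SE of 0.901, was not tested.

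AOC3, the last of the row, was barely detected in unwounded WT, with 8, 5 and 9 counts (0.326, 0.188 and 0.377 CPM), and had 5, 8 and 9 counts in unwounded isi1-2. After wounding it had 32.7, 85.1 and 68.8 CPM in WT and 79.2, 78.8 and 67.1 CPM in isi1-2. The low value of 32.7 CPM was in the WT library that stood apart. Its log2 fold change was 7.71 (SE 0.901, adjusted p = 1.79e-06) in WT and 8.08 (SE 0.901, adjusted p = 9.71e-07) in isi1-2. Without that library the WT value was 8.01 (SE 0.322). The error was thus smaller without that library, although the unwounded counts were the same. Each gene has 1 spread estimate for the 4 groups, so the isi1-2 error includes that library as well. The few unwounded counts also limit how closely this fold can be known.

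AOC4, the cyclase gene outside the row, had 39.6, 32.0 and 33.7 CPM in unwounded and 77.8, 62.4 and 66.7 CPM in wounded WT. In isi1-2 it went from 31.0, 28.7 and 32.5 CPM to 76.1, 64.3 and 65.4 CPM. The groups did not overlap, but the rise was small beside that of the row: 1.97-fold in WT (log2 0.98, SE 0.0972, adjusted p = 8.13e-07) and 2.23-fold in isi1-2 (log2 1.16, SE 0.0977, adjusted p = 1.01e-07).

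The make-up of the cyclase transcripts was different after wounding. Of the summed counts of the 4 genes in WT, AOC1 held 1.45% ± 0.420 (SD, n = 3) before and 29.7% ± 1.85 after wounding. AOC4 went the other way, from 20.0% ± 2.56 to 2.61% ± 0.608, although its own level was higher after wounding. AOC2 held the largest share throughout, 78.3% ± 2.65 and then 65.5% ± 1.97. AOC3 stayed minor, at 0.166% ± 0.0453 and 2.25% ± 0.773. The shares in isi1-2 were 1.57% ± 0.220 and 32.0% ± 1.69 for AOC1, 81.4% ± 0.978 and 64.0% ± 1.74 for AOC2, 0.149% ± 0.0390 and 2.08% ± 0.121 for AOC3, and 16.8% ± 0.868 and 1.91% ± 0.255 for AOC4. The summed cyclase level rose from 178 to 2692 CPM in WT, a ratio of 15.1, and from 183 to 3605 CPM in isi1-2, a ratio of 19.7. AOC2 supplied 64.3% of that rise in WT and AOC1 31.8%, so the gene with the largest fitted fold change was not the one that added most transcripts. With counts divided by exon length, the AOC1 share of wounded WT was 31.7% ± 1.96 in place of 29.7%. The shares are given as a description and were not tested.

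**Figure D2:**
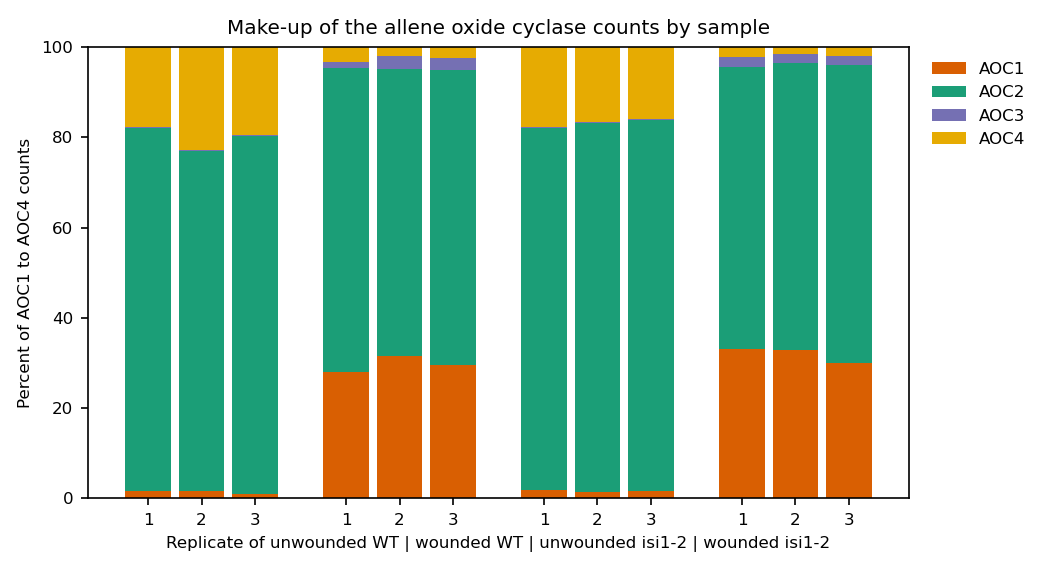
Share of each cyclase gene, in percent of the summed AOC1 to AOC4 counts, in each of the 12 samples (1 bar per replicate, 4 groups from left to right). The AOC1 segment is under 2% in each unwounded sample and between 28.0 and 33.1% in each wounded one, while the AOC4 segment shrinks.

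The genes on either side of the cyclase row had small changes or no counts. The nearest tested gene before the row, MAP1B (AT3G25740), had a log2 fold change of 0.29 (SE 0.0881, adjusted p = 0.0121) in WT and 0.12 (adjusted p = 0.277) in isi1-2. PP2AA2 (AT3G25800), the nearest tested gene after it, had 0.26 (SE 0.0765, adjusted p = 0.0104) and 0.12 (adjusted p = 0.210). AT3G25750 and AT3G25790, which stand between them and the row, had no count in any library.

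OPR3, the reductase of the peroxisome, had the largest rise outside the cyclases. It had 29.2, 22.5 and 22.6 CPM in unwounded WT and 1568, 2183 and 2076 CPM in wounded WT. In isi1-2 the values were 23.3, 23.6 and 26.2 CPM, then 2211, 2142 and 2126 CPM. The lowest wounded sample was replicate 1 of WT, and all wounded samples lay far above the unwounded ones. The log2 fold change was 6.29 (SE 0.122, adjusted p = 1.53e-12, 78.4-fold) in WT and 6.47 (SE 0.121, adjusted p = 8.91e-13, 88.6-fold) in isi1-2.

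OPCL1, the ligase that attaches CoA to the reduced acid, went from 71.5, 45.3 and 59.6 CPM to 923, 1122 and 1140.5 CPM in WT. In isi1-2 it went from 59.4, 60.3 and 73.7 CPM to 1239, 1060.1 and 1019 CPM. The ranges of both lines overlapped before and after wounding. Its log2 fold change was 4.18 (SE 0.157, adjusted p = 8.16e-09) in WT and 4.10 (SE 0.156, adjusted p = 6.98e-09) in isi1-2.

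Of the enzymes of the peroxisome, those of beta-oxidation responded least. ACX1, the acyl-CoA oxidase of the first step, had 54.7, 51.2 and 53.1 CPM in unwounded and 204, 215 and 188 CPM in wounded WT. Its levels in isi1-2 were 49.5, 52.9 and 52.9 CPM, then 222, 209 and 161 CPM. No unwounded and wounded samples overlapped. This is a rise of 3.82-fold in WT (log2 1.93, SE 0.0937, adjusted p = 2.67e-10) and 3.81-fold in isi1-2 (log2 1.93, SE 0.0936, adjusted p = 2.13e-10).

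KAT2, the thiolase that releases each shortened chain, had 149, 139 and 151 CPM in unwounded and 166, 181 and 172 CPM in wounded WT. In isi1-2 it had 151, 148 and 159 CPM, then 179.7, 181 and 169 CPM. The groups did not overlap, yet the difference was only 1.18-fold in WT (log2 0.24, SE 0.0577, adjusted p = 0.00245) and 1.16-fold in isi1-2 (log2 0.21, SE 0.0576, adjusted p = 0.00640). With library totals in place of TMM scaling the isi1-2 value was 0.12 and was no longer called (adjusted p = 0.0857), while the WT value was 0.17 (adjusted p = 0.0186).

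JAR1, which makes the isoleucine conjugate, had a rise of a size like those of AOS and AOC2. It had 76.2, 65.6 and 78.2 CPM in unwounded WT and 655, 1203 and 916 CPM in wounded WT. The isi1-2 samples had 82.0, 78.2 and 81.0 CPM before and 1179.6, 1457 and 1256 CPM after wounding. Wounded WT spread widely, and its highest sample lay within the isi1-2 range. The log2 fold change was 3.66 (SE 0.183, adjusted p = 1.70e-07) in WT and 4.01 (SE 0.183, adjusted p = 7.16e-08) in isi1-2.

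**Figure D3:**
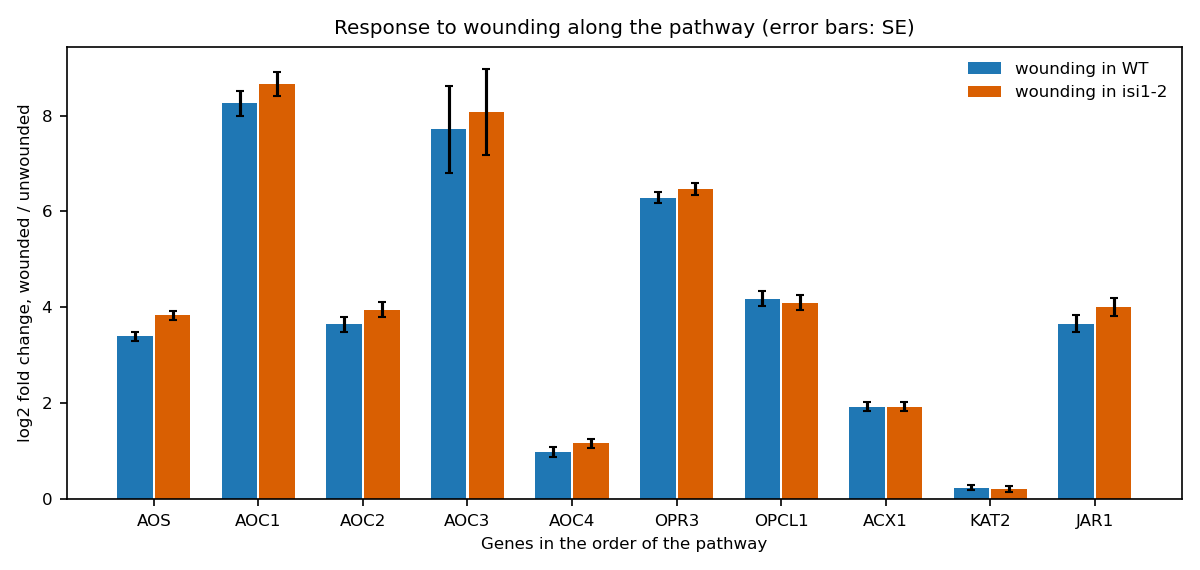
Log2 fold change on wounding of each gene in pathway order, in WT and in isi1-2, with the standard error of the fit as error bars (3 samples per group). The bars are highest for AOC1 (8.26 in WT) and AOC3 (7.71), then OPR3 (6.29), and lowest for KAT2 (0.24).

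The order of the levels was compared per kilobase of exon (RPKM). In unwounded WT, AOS (138 ± 20.1 RPKM, SD, n = 3) and AOC2 (108 ± 28.2) led and overlapped in their ranges. KAT2 came next with 68.4 ± 2.83. JAR1, AOC4, OPCL1 and ACX1 followed between 26.9 and 20.4 RPKM, each overlapping the next, then OPR3 with 14.5 ± 2.23, AOC1 with 2.19 ± 0.904 and AOC3 with 0.179 ± 0.0587. After wounding, AOS (1457 ± 84.0 RPKM), AOC2 (1352 ± 116) and OPR3 (1139 ± 193) headed the order in WT, each overlapping the next. AOC1 followed with 674 ± 119 RPKM, clear of both neighbours, then OPCL1 with 397 ± 45.2 and JAR1 with 339.7 ± 101, which overlapped. KAT2 (80.9 ± 3.38 RPKM) and ACX1 (78.0 ± 5.30) overlapped, as did AOC4 (51.4 ± 5.92) and AOC3 (37.5 ± 16.1) at the end.

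The unwounded isi1-2 order differed from that of WT only in that OPCL1 (24.1 ± 2.99 RPKM) and AOC4 (22.9 ± 1.44), which overlapped, changed places. JAR1 had 29.5 ± 0.717 RPKM there and did not overlap OPCL1. AOS (144 ± 9.40 RPKM), AOC2 (115 ± 11.5) and KAT2 (71.3 ± 2.84) led as in WT, each clear of the next, and ACX1 (19.9 ± 0.757), OPR3 (14.3 ± 0.922), AOC1 (2.42 ± 0.411) and AOC3 (0.166 ± 0.0556) closed the order. In wounded isi1-2, AOS (2039 ± 167 RPKM) overlapped AOC2 (1772 ± 127), and OPR3 (1266 ± 26.6) and AOC1 (972 ± 126) stood clear below them. JAR1 (477 ± 52.6 RPKM) and OPCL1 (414 ± 43.6) overlapped, as did KAT2 (82.4 ± 2.99) and ACX1 (75.9 ± 12.2), and AOC4 (51.1 ± 4.86) and AOC3 (45.2 ± 4.15) came last.

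Related genes responded to wounding to differing degrees. Of 14 genes that act before or beside AOS, 13 were tested, and in WT 10 were called higher, 1 lower and 2 did not pass the test, with a median log2 fold change of 0.62. These counts, and those of the lists that follow, stand beside the 23.9% of all genes called higher in WT and the 25.1% in isi1-2. DAD1, a lipase known to release the fatty acid precursor in flowers, had no count in any unwounded library and 43, 180 and 146 counts in wounded WT. Set against 3 counts per unwounded library, it was at least 36.0-fold higher in wounded WT and at least 49.1-fold higher in wounded isi1-2. FAD3, a desaturase that makes linolenic acid in the endoplasmic reticulum, was the 1 gene called lower (log2 -0.36, SE 0.0692, adjusted p = 4.08e-04). Beside the bound of DAD1, the log2 fold changes in WT ran from -0.70 for PLIP3, which was not called, to 7.26 for LOX4. LOX3 was at 6.60, HPL1 at 5.38, LOX2 at 2.94 and LOX6 at 0.56, so the median does not describe every gene of this list. In isi1-2, 8 of the 13 were called higher and 1 lower, with a median of 0.69.

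Of the 7 genes for import into the peroxisome, the relatives of OPR3 and the ligases related to OPCL1, 5 were called higher in WT and 6 in isi1-2, with medians of 0.31 and 0.57. CTS, the peroxisomal transporter of acyl-CoAs and OPDA, had 65.0 ± 3.43 CPM (SD, n = 3) in unwounded and 85.7 ± 4.50 CPM in wounded WT, a log2 fold change of 0.40 (SE 0.0641, adjusted p = 8.68e-05). OPR1 had the largest change of the list in WT (0.75, SE 0.238, adjusted p = 0.0266) and LACS7, an acyl-CoA synthetase, the smallest of those called (0.28, adjusted p = 0.0316). OPR2 had a value of 0.27 (adjusted p = 0.238) in WT and was called in isi1-2 (0.57, SE 0.185, adjusted p = 0.0163). OPR1 and OPR2 overlap on the same strand and share 3.54 and 4.6% of their stretches of 150 bases, so their split is uncertain, and OPR2 also overlaps a gene on the opposite strand. All these values are far below the 78.4-fold rise of OPR3.

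Of 10 further beta-oxidation genes 9 were tested, and in WT only the thiolases KAT5 and KAT1 were called, the first higher and the second lower. KAT5 had 89.5, 61.0 and 72.0 CPM in unwounded WT and 466, 329 and 349 CPM in wounded WT, with no overlap. Per exon length KAT5 averaged 29.8 ± 5.78 RPKM (SD, n = 3) in unwounded and 153 ± 29.9 RPKM in wounded WT, so it lay below KAT2 (68.4 and 80.9 RPKM) before wounding and above it after. Its log2 fold change was 2.36 (SE 0.161, adjusted p = 7.80e-07) in WT and 2.51 (SE 0.161, adjusted p = 3.76e-07) in isi1-2. KAT5, AIM1 and OPR2 each overlap a gene on the opposite strand, as do JAZ10 and, before or beside AOS, FAD8, JASSY and PLIP3. Whether counting used strand is not given in the sources used here, so part of the counts of these genes could belong to the overlapping gene. KAT1 was at -0.28 (SE 0.105, adjusted p = 0.0380) in WT and -0.05 (adjusted p = 0.726) in isi1-2. ACX5, the oxidase that acts beside ACX1, was at -0.12 (adjusted p = 0.380) in WT. The multifunctional proteins MFP2 and AIM1, which carry out the steps between ACX1 and KAT2, were at -0.07 (adjusted p = 0.384) and 0.00 (adjusted p = 0.958). In isi1-2, 4 of the 9 were called higher and none lower, and the medians were 0.00 in WT and 0.15 in isi1-2.

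Beside JAR1, both genes of the list were called higher in both lines. JMT, which makes methyl jasmonate, had 1.14, 0.827 and 0.837 CPM in unwounded and 22.0, 11.2 and 17.6 CPM in wounded WT (log2 4.17, SE 0.324, adjusted p = 9.11e-08). GH3.10, a relative of JAR1, had 45.0, 41.9 and 45.1 CPM and then 147, 176 and 160.3 CPM (log2 1.87, SE 0.102, adjusted p = 2.44e-09). The isi1-2 values were 5.13 (adjusted p = 8.14e-09) for JMT and 2.30 (adjusted p = 2.04e-10) for GH3.10. GH3.10 shares 8.4% of its stretches of 150 bases with the opposite-strand gene AT4G03410, which it overlaps, so its counts are uncertain in the same way.

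**Figure D4:**
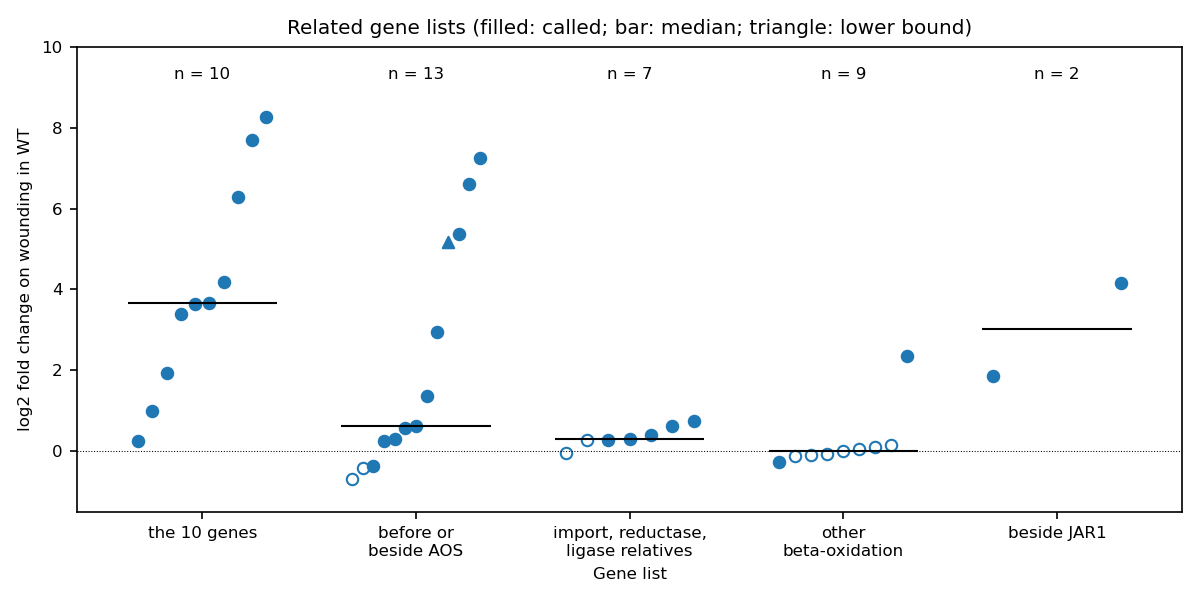
Log2 fold change on wounding in WT for the 10 genes and for the tested genes of 4 related lists, with filled points for called genes, a bar at each median and a triangle for the lower bound of DAD1. The medians are 3.65 for the 10 genes, 0.62 before or beside AOS, 0.31 for import and relatives, 0.00 for other beta-oxidation genes and 3.02 for the pair beside JAR1.

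Before wounding, none of the 10 genes was called between isi1-2 and WT by edgeR, at a background of 0.128%, and DESeq2 also called none. None had an unadjusted p under 0.05, which 9.13% of all genes tested had. The log2 differences of isi1-2 over WT ran from -0.19 for AOC4 (SE 0.0996) to 0.13, and AOS was at 0.06 (SE 0.0927). JAR1 was the 1 gene of the 10 with all 3 isi1-2 samples above all 3 WT samples, which held for 8.31% of all genes tested. The margin was minimal, as the lowest isi1-2 sample and the highest WT sample both rounded to 78.2 CPM.

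After wounding, AOS was the 1 gene of the 10 called between the lines, at a background of 2.39% called in either direction and 1.40% called higher. It was higher in isi1-2 by a log2 difference of 0.49 (SE 0.0919, adjusted p = 0.0126), or 1.40-fold, in 3 of 3 samples. The call was lost without replicate 3 of wounded WT (0.47, adjusted p = 0.0794) and without replicate 2 of wounded isi1-2 (0.42, adjusted p = 0.0706), and it held without the WT library that stood apart (0.46, adjusted p = 0.0131). For AOC1 the difference was 0.53 (SE 0.177, adjusted p = 0.169) and for AOC2 0.39 (SE 0.156, adjusted p = 0.244). In AOS, AOC1 and AOC2 all 3 wounded isi1-2 samples lay above all 3 wounded WT samples, which held for 9.87% of all genes tested.

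JAR1 differed by 0.49 (SE 0.180, adjusted p = 0.208). It was called in DESeq2 (adjusted p = 0.0432) and without replicate 2 of wounded WT (0.72, adjusted p = 0.0161), whereas without the library that stood apart its difference fell to 0.30 (adjusted p = 0.153). The enzymes of the peroxisome lay close to 0: OPR3 at 0.15 (SE 0.115, adjusted p = 0.569), OPCL1 at 0.06 (SE 0.153, adjusted p = 0.895), ACX1 at -0.04 (SE 0.0917, adjusted p = 0.881) and KAT2 at 0.03 (SE 0.0576, adjusted p = 0.870). AOC3 was at 0.27 (SE 0.276, adjusted p = 0.705) and AOC4 at -0.01 (SE 0.0952, adjusted p = 0.981). Without the library that stood apart, AOC3 was at -0.03 and OPR3 at 0.03. The median over the 10 genes was 0.21, against -0.01 over all genes tested. Of the 10 differences, 8 were above 0, beside 48.5% of all genes tested. In edgeR 4 of the 10 had an unadjusted p under 0.05, beside 16.6% of all genes tested. Of the marker lists, the root gene NPF7.3 was higher in wounded isi1-2 than in wounded WT by 1.04 (SE 0.225, adjusted p = 0.0261). Its difference in unwounded plants was 0.81 (SE 0.181, adjusted p = 0.156), and in both conditions the summed root markers of all isi1-2 samples lay above those of all WT samples. That sum was almost wholly NPF7.3, since IRT1 had no count. PYK10 averaged 0.0275 CPM in unwounded and 0.0994 CPM in wounded WT, and 0.0398 and 0.0264 CPM in isi1-2. The part of the root markers in the result was not tested.

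Of the related lists, the pair beside JAR1 was called higher in wounded isi1-2 than in wounded WT: JMT by 0.82 (SE 0.183, adjusted p = 0.0406) and GH3.10, with the uncertainty of its overlap, by 0.43 (SE 0.0992, adjusted p = 0.0367). JMT had 29.2, 33.9 and 26.2 CPM there, above all WT samples, and GH3.10 had 241, 229 and 181 CPM, also above all of them. None of the 13 genes before or beside AOS, the 7 import genes and relatives, or the 9 other beta-oxidation genes was called by edgeR in this comparison, while 4, 3 and 1 of them had an unadjusted p under 0.05, as had 16.6% of all genes tested.

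**Figure D5:**
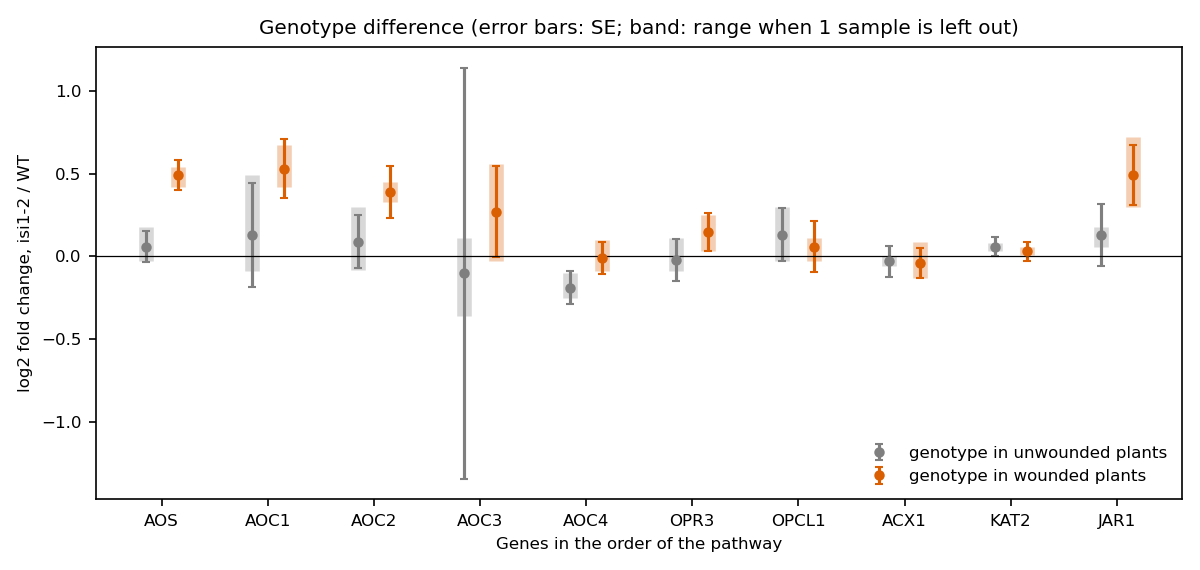
Log2 difference of isi1-2 over WT in unwounded and wounded plants for each gene, with the standard error as error bars and a band for the range over fits that each left out 1 sample. AOS is at 0.49 in wounded plants with a band of 0.42 to 0.54, and the 4 genes from OPR3 to KAT2 lie near 0.

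The difference between the wound responses of the lines was tested as an interaction. None of the 10 genes was called, at a background of 0.0321%, and DESeq2 also called none; 1 gene, AOS, had an unadjusted p under 0.05, which 10.5% of all genes tested had. AOS responded more in isi1-2 by 0.43 on the log2 scale (SE 0.131, unadjusted p = 0.00535, adjusted p = 0.246). The values were 0.40 (SE 0.359) for AOC1, 0.36 (SE 0.259) for JAR1, 0.30 (SE 0.223) for AOC2 and 0.37 (SE 1.27) for AOC3. OPCL1, ACX1 and KAT2 were at -0.07 (SE 0.222), 0.00 (SE 0.132) and -0.03 (SE 0.0815). Without the WT library that stood apart, none of the 10 was called either, with AOS at 0.40 (adjusted p = 0.190), JAR1 at 0.17 and AOC3 at 0.07. The wider errors of the cyclase row leave larger differences undetected there than for ACX1 or KAT2. The call of AOS in wounded plants alone therefore does not show that its response to wounding differed between the lines.

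The genes whose log2 CPM profile lay closest to each of the 10 over the 12 samples were sought among 15823 genes outside the 10. Closeness was the root mean square difference after centring, and the 10 genes were not compared with each other. AOS lay closest to MYB34, a regulator of indole glucosinolate synthesis (0.13 log2 units), and ARGAH2, an arginase (0.15). The nearest to AOC1 were AT5G05600 (0.24) and JAZ5, a jasmonate repressor gene (0.33). AOC2 and JAR1 shared GSTU5, a glutathione transferase, at 0.13 and 0.16, with AAS at 0.17 and LRR XI-23 at 0.15 as the other neighbour of each. AOC3 lay closest to CYP94C1, an enzyme that oxidises the isoleucine conjugate (0.31), and LOX4, a 13-lipoxygenase (0.32). For OPR3 they were IAR3, an amidohydrolase that cleaves the conjugate (0.16), and LOX3 (0.25), and for OPCL1 ADT5, an arogenate dehydratase (0.14), and AT4G36010 (0.16). AOC4 lay near SUR1, an enzyme of glucosinolate synthesis (0.09), and AT1G23330 (0.10). ACX1 had AT3G62010 and AXS2 at 0.11 each, and KAT2 had AT5G24450 at 0.03 and AT4G25660 at 0.04. Since the contrast between unwounded and wounded samples makes up most of each profile, this likeness describes mainly the size of the wound response.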

How the data were processed

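The data were whole-number read counts per gene, 1 table for each of 12 leaf samples, deposited by the authors without normalization. Stranded mRNA libraries were sequenced as single-end reads, per the labels' protocols, and cutadapt 1.8, STAR 2.5.3a, HTSeq 0.9.1 and the build TAIR10 are named in the submitters' processing notes. Whether HTSeq used strand is not given in the sources used here. Coordinates, exon lengths, sequences and symbols were taken by locus identifier from RefSeq TAIR10.1, which matched 32548 identifiers. Library totals were 23307790 to 30747778, and the summary lines for reads without a gene (0.652 to 0.950% with no feature, 0.0960 to 0.117% ambiguous, 4.19 to 4.46% not unique) were left out.

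Counts were tested with edgeR 4.0.16 in R 4.3.3: filterByExpr (at least 10 counts in a group's worth of samples and 15 in all), TMM scaling, a robust quasi-likelihood fit with 1 coefficient for each of the 4 groups, and Benjamini-Hochberg adjustment over 18698 genes at 0.05. Standard errors are from the information matrix of that fit. The fit was also run on simulated counts that gave all genes a common dispersion and held no outlying library. That run does not bear on the spread seen between the real libraries. CPM used TMM-scaled totals, and profiles for likeness used log2 CPM with a prior count of 2. The fold of a gene at 0 was bounded with 3 counts per library, and floors cover counting error only. Replicates were taken as labelled; p-values measure the spread between pools of 2 plants.

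All 10 genes are named for wounding in each line and for the difference between lines in wounded plants. For unwounded plants and for the interaction only some of them are named. Of each related list, the called genes with the largest and the smallest log2 fold change in WT are named. So are 8 genes that share a step with the pathway. For likeness the 2 nearest genes outside the 10 with mean log2 CPM of at least 1 are named. Further genes before or beside AOS are named for the range of that list or for an overlap with another gene. Members and lists were chosen with earlier results of these data known. Alternatives were size factors of DESeq2 1.42.0, no filter, a replicate block, only the groups compared, each sample left out and the DESeq2 test. Library totals without TMM factors were added after seeing the data.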

Additional observations from a re-analysis of the deposited data

How the results depend on the processing

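All 10 genes stayed called higher on wounding under every alternative run, in both lines, except KAT2 in isi1-2 with library totals in place of TMM scaling, as given above. That scaling, chosen after seeing the data, gave 3624 higher and 5414 lower calls over all genes in WT, against 4460 and 4304, and 3643 and 6014 in isi1-2, against 4695 and 4813. In wounded plants it gave 221 higher and 321 lower calls between the lines, against 261 and 185, in unwounded plants 9 and 8, against 16 and 8, and the difference in KAT2 in wounded plants changed sign to -0.01. Genes called between lines in unwounded plants numbered 24, and 38 without a filter, 66 with the replicate block, 81 with only the groups compared, 91 in DESeq2 and 6 to 15 with 1 sample left out. In wounded plants 446 were called, and 703 with the block, 142 with only the groups compared, 715 in DESeq2 and 104 to 940 with 1 sample left out (940 without replicate 1 of WT, 104 without replicate 3 of WT, 138 without replicate 2 and 285 without replicate 3 of isi1-2). The interaction had 6 calls, and 29 without a filter, 75 with the block, 150 in DESeq2 and 0 to 245 with 1 sample left out (245 without replicate 1 of wounded WT). Of the 10 genes, 1 was called between lines in wounded plants, and 2 in DESeq2 and 0 to 2 with 1 sample left out. The cause of these shifts was not tested. With 1 sample left out, unwounded differences between lines ran from -0.03 to 0.18 for AOS, -0.09 to 0.49 for AOC1, -0.08 to 0.30 for AOC2, -0.36 to 0.11 for AOC3, -0.09 to 0.11 for OPR3 and -0.03 to 0.30 for OPCL1. Wounded differences ran from -0.03 to 0.56 for AOC3, -0.09 to 0.10 for AOC4, -0.03 to 0.11 for OPCL1 and -0.13 to 0.09 for ACX1, and interactions from -0.24 to 0.08 for OPCL1 and -0.10 to 0.12 for ACX1. Same-numbered samples deviated together with correlations of -0.0300 to 0.185, not over 0.1 in every pair. With 3 samples per group such values cannot show whether the numbers pair the samples, and the main fit used no pairing. The replicate block changed no call among the 10 genes. Each sample correlated best with its own number in 1 of the 4 pairs of groups (unwounded and wounded WT). The depth limits AOC3 and DAD1, which had at most 9 counts and no count in unwounded libraries.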
